A study of Mus musculus with 39 samples.

Results

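The genes described here were the numbered Zfp genes of the mouse, which encode zinc finger proteins, that were detected in normally fertilized 2-cell embryos. A gene was a member when its symbol was Zfp followed by a number, Zfp352 and Zfp57 left aside, and when at least 1 of its probes was well above background on all 6 arrays of in vitro fertilized embryos. This gave 227 members of the 252 such genes with a named probe, among 16531 named genes on the array. The IVF arrays themselves had chosen the members, so every comparison with IVF is given as a description and without a test.

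Most of these proteins bind DNA through arrays of C2H2 fingers, each held together by a zinc ion. In many of them a KRAB domain recruits the co-repressor Trim28 and the histone methyltransferase Setdb1, and through these silences retrotransposons. Many KRAB zinc finger genes lie in runs of related neighbours, while a minority of Zfp genes have other work, in RNA decay, ribosome assembly or cell division. At the 2-cell stage the mouse genome is switched on and stored maternal messages are degraded, so the level of a transcript combines both processes.

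The study addressed which genes differ in embryos made by somatic cell nuclear transfer (SCNT), and whether a histone deacetylase inhibitor or an added transcription factor moves them. All material was of the strain (B6xDBA/2)F1, and the females that gave oocytes and donor cells were 8 to 10 weeks old. There were 7 arrays of metaphase II oocytes (OC), 6 of IVF embryos and 4 of the cumulus cells used as nuclear donors (Cumulus). TSA(-) were 8 arrays of cumulus-cloned embryos with no treatment named, and TSA(+) were 6 arrays of cloned embryos given trichostatin A (TSA) at 5 nM for 8 h from activation. Spi-C NT were cloned embryos injected with mRNA of the ETS factor Spi-C at the pronuclear stage, 4 arrays at 1.0 mg/ml (Spi-C 1.0) and 4 at 0.1 mg/ml (Spi-C 0.1). The labels name no injection for the TSA(-) embryos. All 2-cell embryos had been cultured for 24 h, and each array held the RNA of 10 pooled oocytes or embryos, or of 500 cumulus cells, amplified in 2 rounds.

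The level of a gene was the log2 intensity relative to the 75th percentile of its array, averaged over its detected probes, so that 0 is the 75th percentile and 1 unit is a doubling. Of all probes, between 48.6% and 59.9% were well above background on OC arrays, between 58.2% and 65.7% on Cumulus arrays and between 66.8% and 77.5% on 2-cell arrays. Oocyte markers (7 genes, among them Gdf9 and Zp3) had a summed log2 level of 10.99 to 11.76 in OC and of -0.08 to 0.92 in Cumulus, and of 8.47 to 9.29 over the 2-cell arrays. The 10 cumulus markers summed to 7.31 to 7.48 in Cumulus, 2.16 to 3.06 in TSA(-) and 3.05 to 3.49 in TSA(+), the embryo sums being carried by Amhr2, whose mean was 2.21 in Cumulus, 2.55 in TSA(-) and 3.15 in TSA(+). Of these markers 5 of 10 were well above background on all TSA(-) arrays and 6 of 10 on all TSA(+) arrays. The IVF arrays gave a sum of 2.26 to 3.10, an Amhr2 mean of 2.61 and 5 of 10 markers above background on all arrays. For the 4 markers of 2-cell embryos on the array, IVF arrays had sums between 6.03 and 6.43. TSA(-) arrays lay at 3.66 to 5.67, and the oocyte arrays at 3.78 to 4.35. The OC range was thus inside that of TSA(-), so this sum did not separate oocytes from TSA(-) embryos. Cumulus arrays gave 2.10 to 2.70, carried by Eif1a, whose mean was 2.35 there and 0.55 in IVF. The Cumulus means of Zscan4c, Tcstv1 and Tcstv3 were -7.56, -7.58 and -7.66. Blood markers stayed between -4.58 and -2.07 over the 2-cell arrays, and sperm markers between -2.02 and -0.30. The OC, IVF, TSA(-) and TSA(+) arrays were read on 1 scanner model with Feature Extraction of version 9, whereas Spi-C NT and Cumulus were read on another model with Feature Extraction of version 10. Spi-C NT shared no slide and no scan day with TSA(-), and neither did Cumulus, so in those comparisons the group and the scanner, software and scan time cannot be told apart. Spic itself was at 1.75 ± 0.35 in TSA(-) (SD, n = 8), 1.22 ± 0.31 on the arrays labelled Spi-C 1.0 (n = 4) and 1.30 ± 0.04 on those labelled Spi-C 0.1 (n = 4), so the arrays that carry the Spi-C label gave no higher Spic signal. Whether the probe lies within the injected sequence was not analysed here, so the value does not check the injection.

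Among the members, 141 were measured by 1 probe, 68 by 2, 16 by 3 and 2 by 4. Just inside the detection rule lay Zfp59, Zfp114 and Zfp316, whose mean levels in IVF were -5.95, -5.74 and -5.69. Just outside, 8 genes were well above background on 5 of the 6 IVF arrays, and their IVF means ran from -6.89 for Zfp458 to -5.08 for Zfp516. Of the 227 members, 170 were well above background on all 7 OC arrays and 13 on none, against 212 on all 4 Cumulus arrays and 2 on none. In TSA(-), 223 were so on all 8 arrays. The rule asked for detection in IVF, which favours detection in the other 2-cell groups. The OC arrays were also dimmer, with a median 75th percentile of 392 intensity units against 1451 in TSA(-). In pooled embryos, fewer cells with a transcript and less of it per cell cannot be told apart.

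**Figure D1:**
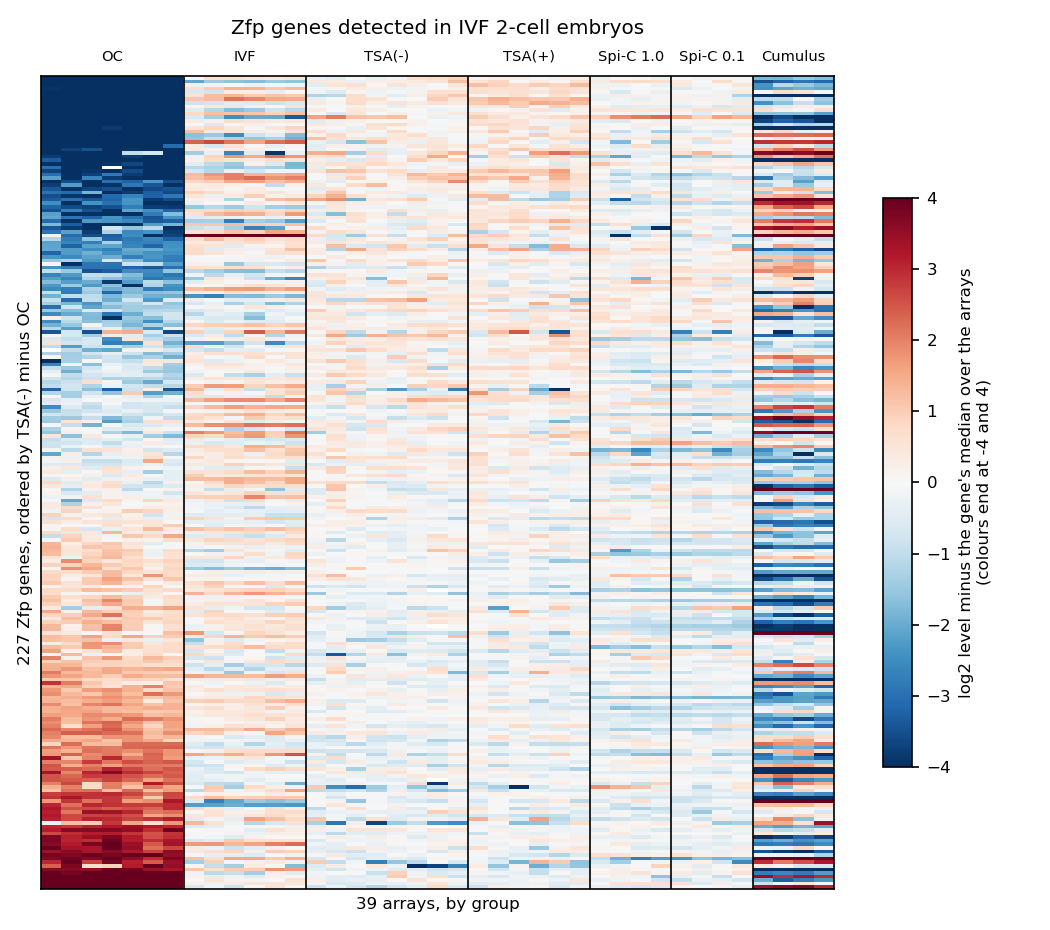
Levels of the 227 Zfp genes (vertical axis, ordered by the difference TSA(-) minus OC) on the 39 arrays (horizontal axis, by group), as the log2 level minus the gene's median over the arrays. Oocytes and cumulus cells stand apart from the 2-cell groups, and the 2-cell groups differ from one another by much smaller amounts.

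As the members are often discussed through their promoters, and Spi-C is an ETS factor that binds a GGAA core, the upstream sequence is shown for those Zfp genes that differed most between Spi-C NT and TSA(-) and have a promoter window in the reference. RefSeq windows of 300 bases (assembly GRCm38.p6, 250 before to 50 after the annotated start) were matched by symbol to 187 of the 227 members. The 250 bases before the start are printed 5′ to 3′ on the gene's strand, with CCGGAA or GAGGAA, on either strand, in capitals. Zfp345 and Zfp146 belong to the genes lower in Spi-C NT, as does Zfp36, while Zfp628 was higher.
Zfp345 (chr2:150485064-150485313, minus strand): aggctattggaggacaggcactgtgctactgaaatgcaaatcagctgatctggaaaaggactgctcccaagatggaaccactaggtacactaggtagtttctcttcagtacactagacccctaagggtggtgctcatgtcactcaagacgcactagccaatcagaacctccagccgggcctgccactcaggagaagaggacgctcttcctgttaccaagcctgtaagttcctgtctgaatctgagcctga
Zfp146 (chr7:30169742-30169991, minus strand): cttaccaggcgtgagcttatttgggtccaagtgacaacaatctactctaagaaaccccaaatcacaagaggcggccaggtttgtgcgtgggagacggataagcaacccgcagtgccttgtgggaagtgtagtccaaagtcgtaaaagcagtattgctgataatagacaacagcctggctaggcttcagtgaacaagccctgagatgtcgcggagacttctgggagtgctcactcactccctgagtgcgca
Zfp36 (chr7:28379229-28379478, minus strand): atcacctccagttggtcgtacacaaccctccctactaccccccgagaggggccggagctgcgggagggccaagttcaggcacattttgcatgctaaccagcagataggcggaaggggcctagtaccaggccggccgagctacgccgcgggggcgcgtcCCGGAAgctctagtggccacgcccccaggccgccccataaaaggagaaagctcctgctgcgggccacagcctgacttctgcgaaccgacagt
Zfp628 (chr7:4914967-4915216, plus strand): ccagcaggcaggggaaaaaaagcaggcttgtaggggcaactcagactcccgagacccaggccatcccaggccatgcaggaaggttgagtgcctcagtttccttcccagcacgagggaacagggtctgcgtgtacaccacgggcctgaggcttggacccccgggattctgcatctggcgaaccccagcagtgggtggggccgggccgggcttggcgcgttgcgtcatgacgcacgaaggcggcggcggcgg
The printed stretch of Zfp628 holds 17 CG pairs and that of Zfp36 holds 18, against 3 in Zfp345 and 9 in Zfp146, and only the Zfp36 stretch holds 1 of the searched motifs. The shorter GGAA core was not searched for or marked, and it occurs in the other printed stretches too. Over the full windows, CCGGAA on either strand was present in 37.9% of the 235 windows of members and in 14.9% of all 32851 windows in the reference table. Some genes have several windows. By call between Spi-C NT and TSA(-), CCGGAA was in 38.3% of the 47 windows of lower genes, 15.4% of the 13 of higher genes and 39.4% of the 175 of genes not called. GAGGAA was present in 28.9% of the windows of members and in 28.3% of all windows, and in 31.9%, 7.69% and 29.7% by call in the same order. The members' windows were also richer in CG, with a median of 16 CG pairs against 7 over all windows. For the 38 genes lower in Spi-C NT that have a window the median was 11 CG pairs, for the 11 higher genes 22, and for the 138 that were not called 17. These letters describe the windows and are not shown to be bound.

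The first question was how the Zfp genes change between the oocyte and the cloned 2-cell embryo. Of the 227 members, 94 were higher in TSA(-) than in OC and 95 were lower, at a limma adjusted p under 0.01 (Benjamini-Hochberg over all 32782 features tested). Over all features, 23.1% were called higher and 47.0% lower. The members had to be detected in 2-cell embryos, which favours genes that rise, so the fairer background is the 12939 named genes that passed the same detection rule, of which 33.6% were called higher and 44.8% lower. Against these, 41.4% of the members were higher and 41.9% lower. The median difference over the members was 0.18 on the log2 scale, compared with -1.01 over all features and -0.44 over the detected named genes. The sign of the members' median turned with the scaling, to -0.48 with median centring and to -0.38 with normexp. It lay above that of all features by 0.70 to 1.19 under the p75, median, quantile and normexp scalings, a gap that the detection rule favours. Over the 251 numbered Zfp genes tested, whatever their detection, the median was -0.13, with 37.8% called higher and 41.8% lower. With median centring 71 members were higher and 111 lower, where 17.8% of all features were higher and 58.7% lower. With normexp 70 members were higher and 107 lower (15.0% and 72.6% of all features), and with quantile scaling 97 and 77 (25.7% and 35.0%). The groups did not overlap for 69 members in the higher and 69 in the lower direction, 30.4% each, where 16.4% and 31.7% of all features did so.

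Zfp871 was not well above background on any OC array and lay between -7.86 and -6.43 there, with a median of -7.23. In TSA(-) it ran from 0.57 to 2.06 with a median of 1.23. The groups did not overlap, and the level in TSA(-) was at least 90.8-fold higher (limma adjusted p = 2.51e-24). Zfp647 also had no OC array above background, with levels from -7.88 to -6.26, and in TSA(-) it ran from 0.42 to 1.46. That difference was at least 81.3-fold (limma adjusted p = 1.56e-23). Zfp622, which takes part in the maturation of the large ribosomal subunit, was above background on 3 of the 7 OC arrays, where it ran from -8.01 to -3.76. In TSA(-) it ran from 2.33 to 3.68, a log2 difference of 8.70 ± 0.46 (SE, limma adjusted p = 1.86e-16). These 3 genes were near the limit of detection in the oocyte and clearly present in the cloned embryo.

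In the opposite direction, Zfp692 lay between 2.55 and 3.55 in OC, with a median of 3.07, and between -3.22 and -1.25 in TSA(-), with a median of -2.74. It fell by 5.58 ± 0.25 on the log2 scale (limma adjusted p = 3.61e-18). Zfp235 lay between 3.22 and 4.20 in OC (median 3.69) and between -2.27 and -1.11 in TSA(-) (median -1.88), and fell by 5.56 ± 0.18 (limma adjusted p = 2.64e-21). Zfp449 lay between 5.03 and 6.22 in OC (median 5.95) and between -0.06 and 0.97 in TSA(-) (median 0.45), and fell by 5.37 ± 0.20 (limma adjusted p = 6.86e-20). All 3 fell far below their oocyte levels and stayed above background on every TSA(-) array. In IVF embryos their mean levels were -2.22, -1.32 and 0.63, so the fertilized embryo showed the same low range.

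Members with known roles moved both ways. Zfp809, which silences retroviruses bound at their primer site through Trim28, was higher in TSA(-) than in OC by 7.18 ± 0.23 (limma adjusted p = 1.31e-21). Zfp217, a regulator of transcription known from tumours, was higher by 6.78 ± 0.37 (limma adjusted p = 3.79e-16). Zfp42, also called Rex1 and used as a marker of pluripotent cells, was higher by 5.93 ± 0.47 (limma adjusted p = 1.88e-12). Zfp462 had no OC array above background and was at least 16.0-fold higher in TSA(-) (limma adjusted p = 3.82e-19). Among the transcripts that fell, Zfp36 encodes tristetraprolin, which binds AU-rich elements and speeds the decay of mRNA, and it fell by 4.01 ± 0.19. Zfp708, a KRAB zinc finger protein, fell by 3.46 ± 0.17, and Zfp207, which binds Bub3 and microtubules in mitosis, fell by 2.57 ± 0.15. Of the 16 members on the list of known roles, 7 were called higher, 6 lower and 3 were not called, these being Zfp281 (0.64 ± 0.24), Zfp459 (1.40 ± 0.85) and Zfp819 (0.12 ± 0.24). Over all members 41.4% were higher and 41.9% lower, and over all features 23.1% and 47.0%. Whether the list differs from the other members was not tested.

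Members were also divided by their neighbourhood. In the RefSeq annotation 110 members had at least 2 other Zfp genes starting within 250 kb and 117 did not. Of the 110, 48 were called higher in TSA(-) than in OC and 38 lower, with a median of 0.62. Of the 117, 46 were higher and 57 lower, with a median of -0.45. These were 43.6% and 34.5% of the 110, and 39.3% and 48.7% of the 117. Among the detected named genes 33.6% were called higher and 44.8% lower, and among all features 23.1% and 47.0%. Whether the sets of members differ was not tested. By comparison, the 27 Zbtb genes detected by the same rule had a median of -0.84, the 13 Zscan and Zkscan genes -0.70 and the 15 Klf genes 0.52. Of 15 measured co-repressor genes of KRAB silencing and related chromatin, 11 were lower in TSA(-) than in OC and 4 higher, the median being -2.39. Among them Trim28 fell by 3.41 and Setdb1 by 2.81, while Cbx3 was higher by 4.42, each called at the same threshold.

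**Figure D2:**
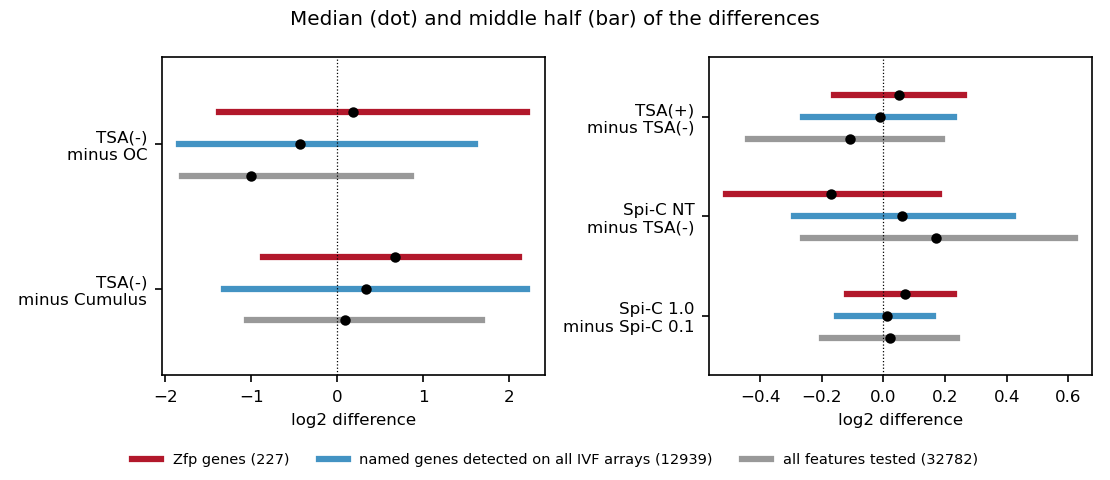
Median (dot) and range between the quartiles (bar) of the log2 differences over the 227 Zfp genes, the 12939 named genes detected on all IVF arrays and all 32782 features tested, for 5 comparisons. The horizontal axes are log2 differences and have different ranges in the left and right panels. The median of the Zfp genes lies to the right of both backgrounds against OC and Cumulus, and to the left of both in Spi-C NT against TSA(-), which with normexp it did not for all features.

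The cloned embryo was next compared with the donor cell. Of the members, 106 were higher in TSA(-) than in Cumulus and 54 lower, where 29.6% of all features were called higher and 24.0% lower. Among the detected named genes 40.9% were higher and 31.3% lower, against 46.7% and 23.8% of the members. The median over the members was 0.67, against 0.09 over all features and 0.33 over the detected named genes. With median centring the members' median turned to -0.19, with 74 higher and 79 lower, and all features then had a median of -0.78, with 21.1% higher and 39.5% lower. The groups did not overlap for 100 members in the higher and 52 in the lower direction, 44.1% and 22.9%, where 25.8% and 21.6% of all features did so. All these differences are shared with the change of scanner.

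Zfp42 was not well above background on any Cumulus array, where it read -8.95, -8.40, -7.50 and -8.30. In TSA(-) it ran from 2.49 to 3.28 with a median of 2.82, at least 634-fold higher (limma adjusted p = 5.17e-17). The gene was likewise high in IVF, with a mean of 3.30 ± 0.34 (SD, n = 6). Zfp750, known as a regulator of epidermal differentiation, read -8.79, -4.75, -8.05 and -4.70 in Cumulus, with 2 of the 4 arrays above background, and ran from 2.32 to 2.95 in TSA(-). Its difference was 9.20 ± 0.47 (limma adjusted p = 1.24e-16). Zfp957 read -4.40, -4.55, -4.72 and -4.33 in Cumulus and ran from 3.50 to 4.05 in TSA(-), a difference of 8.29 ± 0.21 (limma adjusted p = 2.93e-24). Both of these genes were higher still in OC, with means of 6.72 for Zfp750 and 6.35 for Zfp957.

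Zfp36 had the largest difference towards the donor cell among the members that met the naming rule. It read 3.60, 4.44, 4.79 and 4.24 in Cumulus, ran from -2.48 to -1.69 in TSA(-) and fell by 6.40 ± 0.23 (limma adjusted p = 2.02e-20). Zfp358 read -0.35, -0.01, -0.19 and -0.13 in Cumulus and ran from -7.06 to -5.73 in TSA(-), where 6 of 8 arrays were above background, a fall by 6.32 ± 0.39 (limma adjusted p = 7.50e-15). Zfp503, a regulator of transcription in the developing brain and limb, read 1.98, 1.21, 1.58 and 2.43 in Cumulus and ran from -5.25 to -2.58 in TSA(-), a fall by 5.74 ± 0.52 (limma adjusted p = 5.32e-11). For these 3 genes the cloned embryo lay far below its donor cell. The IVF arrays of Zfp503 ran from 0.10 to 0.76, between Cumulus and TSA(-).

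Of the members called higher in TSA(-) than in OC, 38 were also higher than in Cumulus, 24 were lower than in Cumulus and 32 were not called against it. Both comparisons share the TSA(-) arrays, so the counts are given side by side. Whatever their change from OC, 46.7% of the members were higher and 23.8% lower than in Cumulus, against 29.6% and 24.0% of all features. The joint count was not made over all features, so whether it is unusual for the members was not tested. Zfp30, a KRAB zinc finger gene, was at least 54.5-fold higher than in OC (limma adjusted p = 2.09e-22) and 1.18 ± 0.26 higher than in Cumulus. Zfp809 was 1.83 ± 0.27 higher than in Cumulus, and Zfp217 3.55 ± 0.44 higher. Zfp110, which encodes a protein that binds the neurotrophin receptor p75, was 0.81 ± 0.27 higher than in OC and fell by 2.57 ± 0.32 against Cumulus.

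The IVF arrays chose the members, so differences from IVF are given as levels only. Relative to IVF the median log2 difference over the members was -0.23 for TSA(-), -0.23 for TSA(+) and -0.33 for Spi-C NT, where all features had -0.05, -0.23 and 0.16. The named genes detected by the same rule had -0.12, -0.17 and -0.04. For the numbered Zfp genes tested, whatever their detection, the medians were -0.20, -0.23 and -0.24. All 3 comparisons share the IVF arrays. Between IVF and OC the median over the members was 0.21, and -0.89 over all features. It was -0.15 over the detected named genes and -0.07 over the numbered Zfp genes whatever their detection. The rule favours a high value in IVF, so the members' median is not evidence of a rise.

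Several members had large gaps between fertilized and cloned embryos. Zfp503 had a mean of 0.36 ± 0.25 (SD, n = 6) in IVF and of -3.94 ± 0.93 (n = 8) in TSA(-), -3.64 ± 0.71 (n = 6) in TSA(+) and -4.82 ± 1.69 (n = 8) in Spi-C NT. Zfp281, a regulator of the exit from pluripotency, was at 2.37 ± 0.36 in IVF, whereas the TSA(-), TSA(+) and Spi-C NT means were 0.50 ± 0.47, 0.45 ± 0.26 and 0.33 ± 0.34. Zfp708 was at 2.86 ± 0.32 in IVF and at 1.03 ± 0.22, 0.94 ± 0.13 and 0.90 ± 0.27 in the cloned groups, in the same order. For these 3 genes the cloned groups lay well below IVF, and for Zfp281 and Zfp708 they also lay close together. Zfp871 showed the reverse, with -0.80 ± 0.23 in IVF and 1.26 ± 0.41, 1.27 ± 0.33 and 1.32 ± 0.34 in the cloned groups. Zfp941, named after its values were seen, was 2.82 higher in TSA(-), 2.69 higher in TSA(+) and 3.53 higher in Spi-C NT than in IVF.

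Whether TSA moved the Zfp genes of cloned embryos was the next comparison. No member was called between TSA(+) and TSA(-) by limma at an adjusted p under 0.01, where 0.0458% of all features were called higher and 0.0885% lower. At an unadjusted p under 0.05 there were 24 members, 10.6% of them against 16.7% of all features, and at a limma adjusted p under 0.05 there were 3, 1.32% against 1.36%. The one-way test followed by Tukey's HSD called 3 members higher and 2 lower, 1.32% and 0.881% against 0.631% and 1.34% of all features. There only the one-way p was adjusted over the features, and the Tukey's HSD p of the pair was not. Of the detected named genes, 0.0696% were called higher and 0.0309% lower. The median difference over the members was 0.05, with 129 of 227 above 0, against -0.11 over all features and -0.01 over the detected named genes. TSA(+) and TSA(-) share 3 of the scan days and 1 slide. The summed cumulus markers were higher in TSA(+), as was Amhr2 itself, and the summed oocyte markers were lower without overlap, at 8.77 to 8.94 against 8.95 to 9.19 in TSA(-). Their part in these differences was not tested.

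The members with the smallest unadjusted p are described next, and none of them was called. Zfp30 ran from -0.08 to 1.20 in TSA(-) with a median of 0.49, and from 1.28 to 1.66 in TSA(+) with a median of 1.37. All TSA(+) arrays lay above all TSA(-) arrays, and the IVF arrays ran from 1.34 to 2.35. The difference of 0.91 ± 0.23 had a limma adjusted p of 0.0427, and was 0.85 with the slide as a block (limma adjusted p = 0.412) and at 0.90 with the scan day as a block, chosen after seeing the data (limma adjusted p = 0.0692), while Tukey's HSD and normexp called it. Within the 3 shared scan days it was 1.09, 0.33 and 1.02, from 2, 2 and 2 TSA(+) arrays and 1, 1 and 2 TSA(-) arrays. Zfp276 ran from -1.78 to -0.43 in TSA(-) and from -0.55 to 0.04 in TSA(+), with some overlap, and differed by 0.90 ± 0.19 (limma adjusted p = 0.0199).

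Zfp689 ran from -2.86 to -2.23 in TSA(-) and from -3.59 to -3.06 in TSA(+), without overlap, a difference of -0.71 ± 0.14 (limma adjusted p = 0.0117). The value came from probes that disagreed, the 2 probes differing between the groups by -1.44 and 0.02. The difference thus came from 1 of the probes. Zfp647 ran from 0.42 to 1.46 in TSA(-) and from 1.61 to 2.10 in TSA(+), again without overlap, and differed by 0.75 ± 0.22 (limma adjusted p = 0.0766). Its IVF arrays ran from 0.68 to 1.10, below all TSA(+) arrays.

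Zfp444 lay between -2.75 and -1.61 in TSA(-) and between -1.73 and -0.77 in TSA(+), the IVF arrays being lower, between -4.94 and -3.52, and TSA(+) differed from TSA(-) by 0.99 ± 0.29 (limma adjusted p = 0.0781). Its level in the TSA(+) arrays was thus farther from IVF than that in the TSA(-) arrays. Zfp667 differed by -0.86 ± 0.24 (limma adjusted p = 0.0590) and Zfp653 by 0.67 ± 0.20 (limma adjusted p = 0.0907). Zfp296, a factor known from embryonic stem cells, lay between 3.24 and 3.98 in TSA(-), with TSA(+) arrays between 3.96 and 4.49 and IVF arrays between 4.37 and 4.64. It differed by 0.42 ± 0.13 (limma adjusted p = 0.0979), and its 2 probes by 0.40 and 0.44. Over all members, 3 had TSA(+) arrays entirely above and 2 entirely below the TSA(-) arrays, 1.32% and 0.881% of the members, where 0.683% and 0.726% of all features did so.

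**Figure D3:**
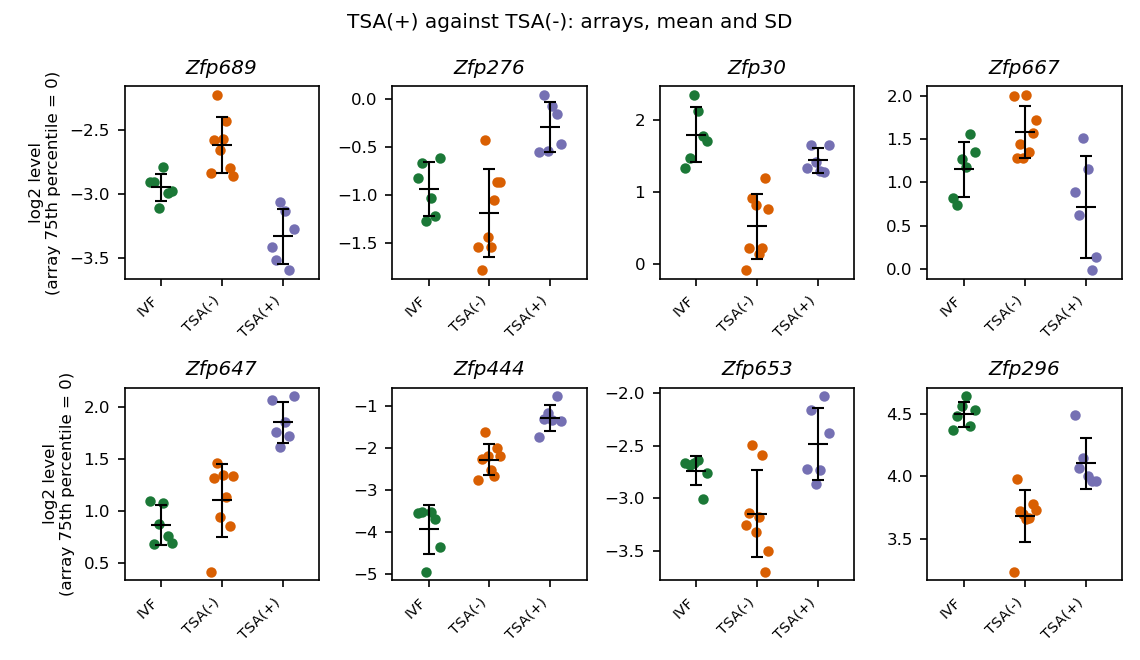
Levels (vertical axis, log2, with the 75th percentile of the array at 0) of the 8 Zfp genes with the smallest unadjusted p between TSA(+) and TSA(-), by group on the horizontal axis, with 1 point per array and the mean and SD in black. Zfp689, Zfp30 and Zfp647 show no overlap between TSA(-) and TSA(+), and none of the 8 genes was called at a limma adjusted p under 0.01.

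The list of zygotic transcription regulators that the study drew from these same arrays holds 10 numbered Zfp genes, of which 8 were measured here as members. All 8 had a higher mean in TSA(+) than in TSA(-), by 0.13 for Zfp472 up to 0.91 for Zfp30, with a median of 0.24. Because the list was chosen on these samples, this is not independent evidence of a direction, and limma called 0 of the 8. Among the role genes the largest value was 0.64 ± 0.32 for Zfp748 (limma adjusted p = 0.31), and Zfp143, an activator bound at many promoters, was next with 0.53 ± 0.24 (limma adjusted p = 0.247). For Zfp143, TSA(-) replicate 7 was at -0.40 where the other TSA(-) arrays ran from 1.05 to 1.64, which enlarges the difference. Its 2 probes differed by 0.04 and 0.59. The 15 co-repressor genes had a median of -0.01 and 0 of them were called, Trim28 being at 0.36 (limma adjusted p = 0.267). Likewise 0 of the 27 Zbtb, 13 Zscan and Zkscan and 15 Klf genes were called by limma, and at an unadjusted p under 0.05 there were 3, 1 and 5 of them, beside 4 of the co-repressor genes.

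A larger number of Zfp genes differed between Spi-C NT and TSA(-). Of the members 16 were higher in Spi-C NT and 45 were lower, at a limma adjusted p under 0.01, while 12.3% of all features were called higher and 7.8% lower. Among the detected named genes 14.5% were called higher and 11.3% lower, against 7.05% and 19.8% of the members. The median over the members was -0.17, compared with 0.17 over all features and 0.06 over the detected named genes, and 142 of the 227 members lay below 0. Relative to all features the members lay lower by 0.34, 0.34 and 0.24 with p75, median and quantile scaling. This was not so with normexp, where the members' median was -0.19 and that of all features -0.23, with 6.61% of the members called higher and 28.2% lower against 10.2% and 32.8% of all features, so that the members' share of lower calls was then below that of all features. With median centring 6 members were higher and 65 lower, 2.64% and 28.6%, and all features turned to 7.23% higher and 11.7% lower. The scanner, software and slides all changed with the group, so these differences cannot be told apart from them. In addition, 25 members had no overlap between the groups in the lower direction and 4 in the higher, 11.0% and 1.76% of the members, where 3.68% and 5.59% of all features did so.

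Zfp345 had the smallest p of the genes named. It ran from 1.51 to 1.95 in TSA(-) and read 0.17, 0.29, -0.10 and 0.05 at 1.0 mg/ml and -0.02, -0.17, -0.15 and -0.13 at 0.1 mg/ml. All Spi-C NT arrays lay below all TSA(-), TSA(+) and IVF arrays, and the gene fell by 1.76 ± 0.09 (limma adjusted p = 1.98e-13). Its 2 probes fell by 1.91 and 1.61. Zfp248 ran from -1.81 to -0.92 in TSA(-) and read -3.60, -3.51, -4.31 and -3.00 at 1.0 mg/ml and -3.52, -3.34, -4.29 and -3.02 at 0.1 mg/ml. It fell by 2.20 ± 0.19 (limma adjusted p = 2.24e-09), and both concentrations gave the same range.

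Zfp146, a protein made almost wholly of zinc fingers, ran from -2.60 to -1.99 in TSA(-) and from -4.29 to -3.39 over the Spi-C NT arrays, and fell by 1.62 ± 0.13 (limma adjusted p = 7.13e-10). Its probes fell by 2.20 and 1.04. Zfp36 ran from -2.48 to -1.69 in TSA(-) and from -4.53 to -2.74 over the Spi-C NT arrays, and fell by 1.57 ± 0.20 (limma adjusted p = 1.57e-06). Here the probes differed, the 2 falling by 2.85 and 0.29. Zfp36 was also the member with the strongest excess in Cumulus among those named. The summed cumulus markers ran from 2.16 to 3.06 in TSA(-) and from 2.26 to 2.87 over the Spi-C NT arrays. The oocyte markers were lower in Spi-C NT without overlap, at 8.47 to 8.76 against 8.95 to 9.19 in TSA(-), and the 2-cell markers ran from 3.33 to 4.51 against 3.66 to 5.67. The part of these markers in the Zfp differences was not tested.

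In the higher direction, Zfp574 ran from -0.21 to 0.84 in TSA(-) and read 1.08, 1.28, 1.84 and 1.59 at 1.0 mg/ml and 1.72, 1.33, 1.48 and 1.41 at 0.1 mg/ml. It was higher by 1.22 ± 0.15 (limma adjusted p = 5.45e-07), and its IVF arrays ran from 0.84 to 1.40. Zfp628 ran from -0.43 to 0.40 in TSA(-) and from 0.57 to 1.52 over the Spi-C NT arrays, higher by 1.03 ± 0.16 (limma adjusted p = 2.08e-05). In IVF it was lower than in either, from -0.97 to -0.30. Zfp524 ran from -3.96 to -3.02 in TSA(-) and from -2.99 to -2.13 over the Spi-C NT arrays, higher by 0.93 ± 0.19 (limma adjusted p = 4.07e-04). Zfp750 was higher by 0.59 ± 0.16 (limma adjusted p = 0.00498), and this call was lost with median centring (limma adjusted p = 0.0605). These 4 genes are the ones with the largest rise that also showed no overlap.

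**Figure D4:**
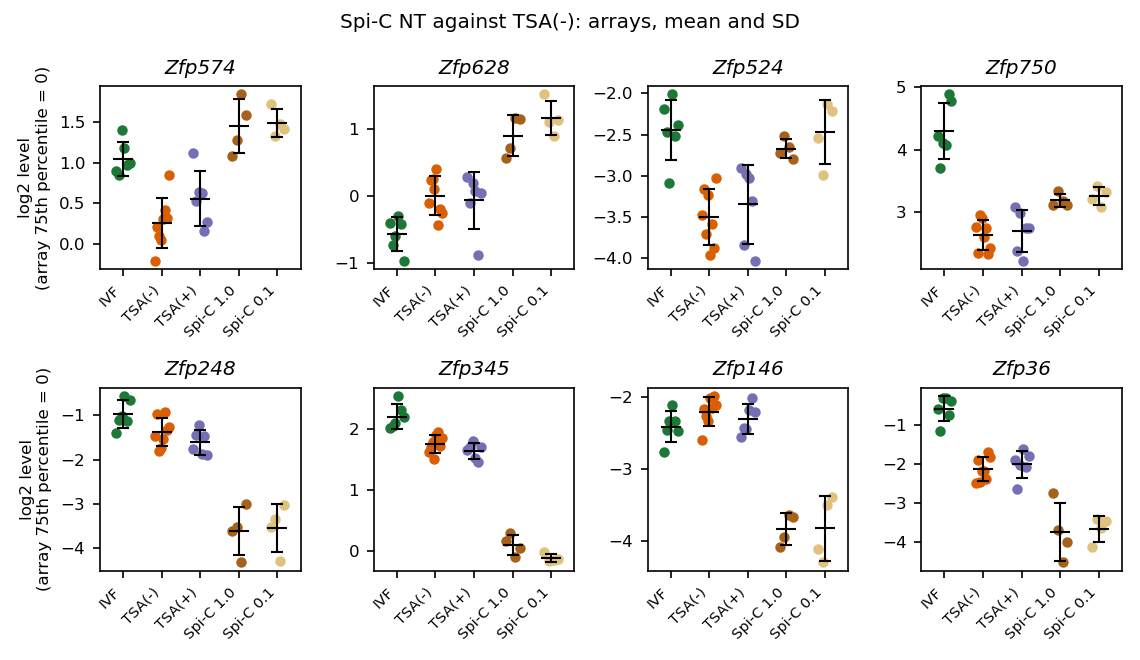
Levels (vertical axis, log2, with the 75th percentile of the array at 0) of the 8 Zfp genes named for Spi-C NT against TSA(-), by group on the horizontal axis, with 1 point per array and the mean and SD in black. The 4 genes in the upper row were higher and the 4 in the lower row lower in both Spi-C groups than in TSA(-), which were read on different scanners.

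Of the 16 role genes, 1 was called higher in Spi-C NT, Zfp748 (0.99 ± 0.28, limma adjusted p = 0.00783), 3 were called lower and 12 were not called. The 3 were Zfp36, Zfp462 (-0.82 ± 0.23, limma adjusted p = 0.00739) and Zfp263 (-0.59 ± 0.15, limma adjusted p = 0.00334). Zfp42 (-0.13 ± 0.14), Zfp281 (-0.16 ± 0.19) and Zfp809 (-0.21 ± 0.14) were not called. Over all members 7.05% were called higher and 19.8% lower, and over all features 12.3% and 7.8%. Of the 8 genes on the study's list, Zfp574, Zfp414 and Zfp592 were higher in Spi-C NT and Zfp2 was lower, the last by 1.45 ± 0.17 (limma adjusted p = 2.36e-07). The study chose this list on these same arrays for being repressed in TSA(-), so these calls are not independent evidence of a direction. The level of Zfp2 in TSA(-) was below that in IVF, at -2.51 ± 0.43 against -1.52 ± 0.27, which the choice of the list had required.

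Of the 45 members lower in Spi-C NT, 24 had at least 2 other Zfp genes starting within 250 kb, as did 8 of the 16 higher ones and 78 of the 166 not called. The 110 members with such neighbours had a median of -0.17 and the 117 without -0.16, nearly the same value. On chromosome 17 9 of the 19 members with neighbours were lower and 1 was higher, with a median of -0.39, against 6 lower and 5 higher of 48 on chromosome 7. The run on chromosome 17 holds Zfp51, Zfp52, Zfp53 and Zfp54, which were named after their values were seen and which fell by 0.58, 1.09, 1.43 and 1.33. Neighbouring genes of a run can be near copies whose transcripts share sequence with the same probe, so these 4 values are uncertain as separate genes. Such sharing was not checked for any member, so the same limit holds for the other members with neighbours and for their counts. On chromosome 4, 3 of 4 members with neighbours were lower and 0 higher. The shares over all members were 19.8% lower and 7.05% higher, and over all features 7.8% and 12.3%. Chromosomes 17, 7 and 4 were picked from those that hold such members, and whether they differ from the others was not tested. All these counts share the change of scanner.

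By comparison, of the 27 Zbtb genes 1 was higher and 3 were lower, of the 13 Zscan and Zkscan genes 2 and 1, and of the 15 Klf genes 4 and 0. Of the 15 co-repressor genes, 1 was higher and 4 lower, where 12.3% of all features were called higher and 7.8% lower. Trim28, the hub of KRAB silencing, fell by 0.54 (limma adjusted p = 0.00166), Setdb1 by 0.75 (limma adjusted p = 0.00116), Mphosph8, a reader of the silencing mark H3K9 methylation, by 0.48 (limma adjusted p = 0.00256) and Daxx by 0.37 (limma adjusted p = 0.00823). Atrx was higher by 0.55 (limma adjusted p = 0.00615).

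**Figure D5:**
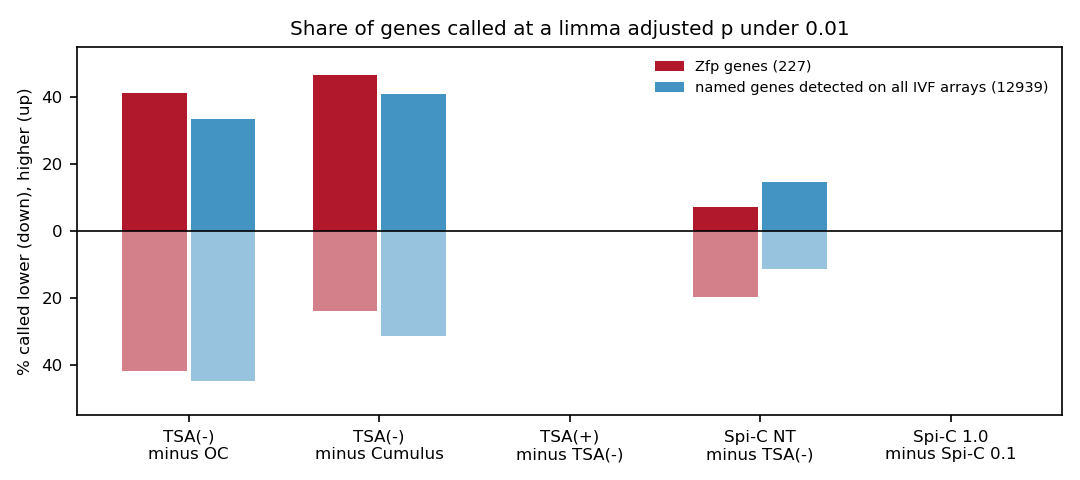
Share of the 227 Zfp genes and of the 12939 named genes detected on all IVF arrays that were called higher (upward bars) or lower (downward bars) at a limma adjusted p under 0.01, in percent, for 5 comparisons. In Spi-C NT against TSA(-) 19.8% of the Zfp genes were lower and 7.05% higher, while in TSA(+) against TSA(-) and between the Spi-C concentrations none was called.

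The concentrations of Spi-C mRNA were compared on arrays that shared both slides and the scan day. No member was called by limma between 1.0 and 0.1 mg/ml, where 0.0061% of all features were called higher and 0.0% lower, 16 members had an unadjusted p under 0.05 and Tukey's HSD called 1 higher. These were 7.05% and 0.441% of the members, where 4.18% of all features had such a p and Tukey's HSD called 0.0763% higher and 0.0702% lower. The median over the members was 0.07 against 0.02 over all features, and 142 of 227 lay above 0. In 13 members all arrays at 1.0 mg/ml lay above all at 0.1 mg/ml and in 2 below, 5.73% and 0.881% of the members, against 1.89% and 1.53% of all features. Zfp97 had the smallest unadjusted p and read -2.55, -2.79, -2.79 and -2.90 at 1.0 mg/ml and -3.06, -3.47, -3.57 and -3.49 at 0.1 mg/ml. The difference of 0.64 ± 0.20 had a limma adjusted p of 0.999. Zfp958 read 1.27, 1.01, 0.84 and 0.93 at 1.0 mg/ml and 0.59, 0.56, 0.59 and 0.53 at 0.1 mg/ml, and its difference of 0.45 ± 0.14 had the same adjusted p by limma. Zfp958 was the member called by Tukey's HSD. Its p there was 0.00938, the larger of the one-way p adjusted over the features and the unadjusted Tukey's HSD p of the pair. It is therefore not comparable with the adjusted p of limma. The members lower in Spi-C NT lay at similar values for both, with medians of -0.82 at 1.0 mg/ml and -0.99 at 0.1 mg/ml against TSA(-).

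Where a member had several probes they did not always move together. Of the 86 members with more than 1 detected probe, all probes had the same sign in 54 for TSA(+) against TSA(-), in 56 for Spi-C NT against TSA(-) and in 63 for the concentrations. Against OC they had the same sign in 66 and against Cumulus in 63. The median gap between the lowest and highest probe was 0.25 for TSA, 0.50 for Spi-C NT and 1.22 against OC. Where on its transcript each probe lies was not analysed here.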

How the data were processed

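The authors deposited the scanner output of 39 one-colour (Cy3) Agilent 44 K arrays. The authors used Feature Extraction (version 9 or 10, per the file headers), whose background-subtracted signal is the intensity used, and whose deposited flags mark outlier spots and spots well above background. The authors also deposited a log2 table, and comparison with the scanner values showed that it had been centred on every array's 75th percentile and every probe's median.

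Here, log2 intensity was taken relative to each array's 75th percentile. Outlier spots (1820 values) were left out. Accessions were matched to RefSeq symbols (GRCm38.p6), which named 23366 of 41174 probes. A gene's value was the mean of its probes detected on all IVF arrays, or of all its probes where none was. Features that reached 10 intensity units on any IVF or SCNT array, 32782 of 34339, went into lmFit and eBayes (limma 3.58.1, R 4.3.3), with calls at an adjusted p under 0.01 by Benjamini and Hochberg. One fit held the oocyte, Cumulus, IVF and both TSA groups, and the other IVF, the TSA groups and both Spi-C groups, with Spi-C NT as the mean of its 2 concentrations. A gene with no array of a group above background was given a bound against the lowest signal well above background on each array. The steps were tested on simulated data.

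Members and gene lists were chosen with earlier results of these data known. Genes named are those called, or the 8 with the smallest p where none was, for TSA. For Spi-C NT they are the 4 largest differences in each direction, and the 3 largest against OC and against Cumulus, among called members without overlap and above background throughout the higher group. For the concentrations they are the 2 with the smallest p, and a list of 20 genes with known roles and the study's list of 10 were added. Cell type markers were those of oocytes, 2-cell embryos, cumulus cells, blood and sperm. Precision is limited by how many arrays there are and, near background, by the signal. Alternatives were median, quantile and normexp scaling (offset 50), the authors' table, 2 filters, all probes, Tukey's HSD, an adjusted p under 0.05, groups alone, blocks and leaving out each array. Figures were drawn with matplotlib 3.10.9.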

Additional observations from a re-analysis of the deposited data

Results flagged for a closer look

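Over 329 groups of 4 to 8 arrays, from the 46 named genes and the members' median, 18 held an array that stood apart from the others of its group by Dixon's test at the 95% level, and chance alone would give about 1 in 20. TSA(-) replicate 7 did so for 3 genes: Zfp143 was at -0.40 where the other arrays ran from 1.05 to 1.64, Zfp235 at -1.11 (others -2.27 to -1.76) and Zfp692 at -1.25 (others -3.22 to -2.30). Further TSA(-) arrays were replicate 1 for Zfp296 (3.24, others 3.66 to 3.98), replicate 1 for Zfp97 (-2.69, others -3.52 to -3.14) and replicate 2 for Zfp472 (1.46, others 0.24 to 0.74). In TSA(+) they were replicate 4 for Zfp143 (1.41), replicate 1 for Zfp296 (4.49) and replicate 5 for Zfp628 (-0.89).

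In OC, replicate 1 was low for Zfp110 (-3.41, others -1.95 to -1.26) and high for Zfp503 (-3.98, others -7.78 to -6.33), and replicate 2 was high for Zfp667 (3.40). Replicate 5 of IVF was low for Zfp653 (-3.01). In Spi-C 1.0, replicate 1 stood apart for Zfp235 (-1.62) and Zfp263 (-1.79), and in Spi-C 0.1 replicate 2 did so for Zfp281 (-0.18). Among Cumulus arrays it was replicate 2 for Zfp207 (2.94) and replicate 4 for Zfp809 (0.02). No array stood apart in the median over the members.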

How the results depend on the processing

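Between TSA(+) and TSA(-) the 0 members called became 4 with normexp, 1 with features well above background only, 5 with Tukey's HSD and 3 at an adjusted p under 0.05. Zfp276 and Zfp30 were among those called by Tukey's HSD and by normexp. Leaving out an array gave 0 to 1, the 1 being Zfp276 without TSA(-) replicate 3 (limma adjusted p = 0.00523) and Zfp689 without TSA(-) replicate 7 (limma adjusted p = 0.00922). With the scan day as a block, chosen after seeing the data, and with the slide as a block the count was 0. Between the concentrations 0 became 1 with Tukey's HSD and stayed 0 without any 1 array. Counts for Spi-C NT against TSA(-) ran from 49 to 64 without 1 array, against OC from 184 to 192 and against Cumulus from 147 to 160. The share of Spi-C NT calls that were higher was 26.2%, and 8.45% with median centring, against OC it was 49.7%, 39.0% with median centring and 39.5% with normexp, and against Cumulus 66.2% and 48.4% with median centring.

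The medians against IVF moved as follows. IVF minus OC was 0.21, and -0.47 with median centring, 0.50 with quantile scaling and -0.12 with normexp. TSA(+) minus IVF was -0.23, and -0.03 and -0.10 with median centring and quantile scaling. Spi-C NT minus IVF was -0.33, and -0.51 with median centring. Without 1 array they ran from 0.17 to 0.27 for IVF minus OC, -0.26 to -0.19 for TSA(-) minus IVF, -0.26 to -0.19 for TSA(+) minus IVF and -0.34 to -0.29 for Spi-C NT minus IVF. The cause of these moves was not tested.

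None of the differences named for their size or p in the tested comparisons reversed. Zfp750 between Spi-C NT and TSA(-) lost its call with median centring, the replicate block (limma adjusted p = 0.0207) and 5 of the left-out arrays, namely replicates 2, 7 and 8 of TSA(-) and replicate 2 of each concentration, the limma adjusted p then being 0.0111 to 0.0121. The replicate numbers do not pair the samples: same-numbered arrays correlated at -0.087 to 0.166, and not every array correlated best with its own number. With the replicate block 0 members were called for TSA, 41 for Spi-C NT (61 without it), 0 between the concentrations, 182 against OC and 151 against Cumulus. Dim members near background are limited by their signal.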
